A study of Homo sapiens with 6 samples.

Results

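The genes described here are the classical cadherins CDH1 (E-cadherin), CDH2 (N-cadherin) and CDH3 (P-cadherin), their cytoplasmic partner CTNNB1 (β-catenin), the mesenchymal intermediate filament VIM (vimentin) and the transcription factors SNAI1 (Snail), SNAI2 (Slug), ZEB1, ZEB2 and TWIST1. They were taken by name from a table of 66351 gene models, in which all 10 are listed. RNA was sequenced from SAS-Fucci cells, a human tongue squamous cell carcinoma line carrying a fluorescent cell-cycle reporter. Cells were examined 72 h after transfection with IGFBP3 siRNA #1 (72 h, 2 libraries), 48 h after transfection with the same siRNA (48 h, 2 libraries) or after transfection with a non-targeted control siRNA (Cont, 2 libraries), to ask how loss of the secreted IGF-binding protein IGFBP-3 alters gene expression. All 3 groups were transfected, fresh medium was given after 48 h to the cells kept until 72 h, and every library comes from 1 cell line and 1 knockdown siRNA. It is not stated whether replicate libraries were separate cultures or how long after transfection the Cont cells were collected, so p values measure the spread between these libraries, which may be technical.

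In epithelial-mesenchymal transition (EMT), epithelial cells loosen cadherin-based adherens junctions and take on a migratory, mesenchymal shape. E-cadherin and P-cadherin hold neighbouring epithelial cells together through their extracellular domains, while β-catenin binds their cytoplasmic tails and, when free, also acts as a transcriptional co-activator of Wnt target genes. Snail, Slug, ZEB1, ZEB2 and TWIST1 are DNA-binding factors known for repressing CDH1 or favouring mesenchymal genes, and a switch to N-cadherin and vimentin is commonly read as a mark of the mesenchymal state. Squamous carcinoma cells often hold both kinds of marker at once.

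IGFBP3 itself checks the labels. Its level was 1.52 and 3.25 FPKM (assigned reads relative to gene length and library size) at 72 h, 0.261 and 0.258 FPKM at 48 h, and 24.7 and 23.1 FPKM in Cont. The log2 fold change of FPKM + 1, the scale of every fold change below, was -2.93 at 72 h (standard error 0.22, adjusted p = 0.00218, limma) and -4.30 at 48 h (standard error 0.22, adjusted p = 0.000549, limma), and adding 1 to each value draws changes of weakly expressed genes toward 0. The libraries held from 17430737 to 21579559 assigned reads. Across the 11214 genes tested, libraries of 1 group differed by a root mean square of 0.202 to 0.210 on the log2 scale, knockdown and Cont libraries by 0.320 to 0.389, and 72 h and 48 h libraries by 0.268 to 0.321. No library stood apart from its group on this measure. Of 8 squamous epithelial markers, 7 passed the filter on low values, and TP63, EPCAM and SFN were at 8.43 FPKM or more in each library. The keratin genes KRT14 and KRT16 were weak, at 0.554 to 2.76 FPKM and 0.135 to 1.105 FPKM. Fibroblast markers summed to between 1.06 and 2.14 FPKM over 9 genes, and the 5 endothelial and 5 immune markers to at most 0.836 and 0.786 FPKM.

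Vimentin rose and β-catenin and P-cadherin fell after IGFBP3 knockdown at both times, Slug rose modestly, and E-cadherin and N-cadherin passed the test in neither direction. Of the 10 members, 8 were tested, since ZEB1 and ZEB2 stayed under 1 FPKM in every library. At 72 h, 2 of the 8 were called lower and 2 higher, against 9.51% and 3.56% of all tested genes (limma, adjusted p under 0.05). At 48 h the same 4 genes were called, 2 lower and 2 higher, against 16.5% and 8.38% of all tested genes. Between 72 h and 48 h no member was called by limma, where 2.19% of all tested genes were called higher at 72 h and 1.86% lower. At an unadjusted p under 0.05, 3 of the 8 members (CDH1, CDH3 and TWIST1) passed there, as did 2838 of all 11214 tested genes (limma). Limma-voom on recovered reads called 1 of the 8 (CDH3), against 1163 over all tested genes. Both knockdown comparisons use the same Cont libraries and are not independent of each other. With 2 libraries against 2, an exact permutation test of a single gene cannot go under a two-sided p of 0.333, so each adjusted p rests on the spread that limma shared across genes. Because the RNA came from whole cultures, a smaller number of cells with a transcript and less of it per cell cannot be told apart.

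**Figure D1:**
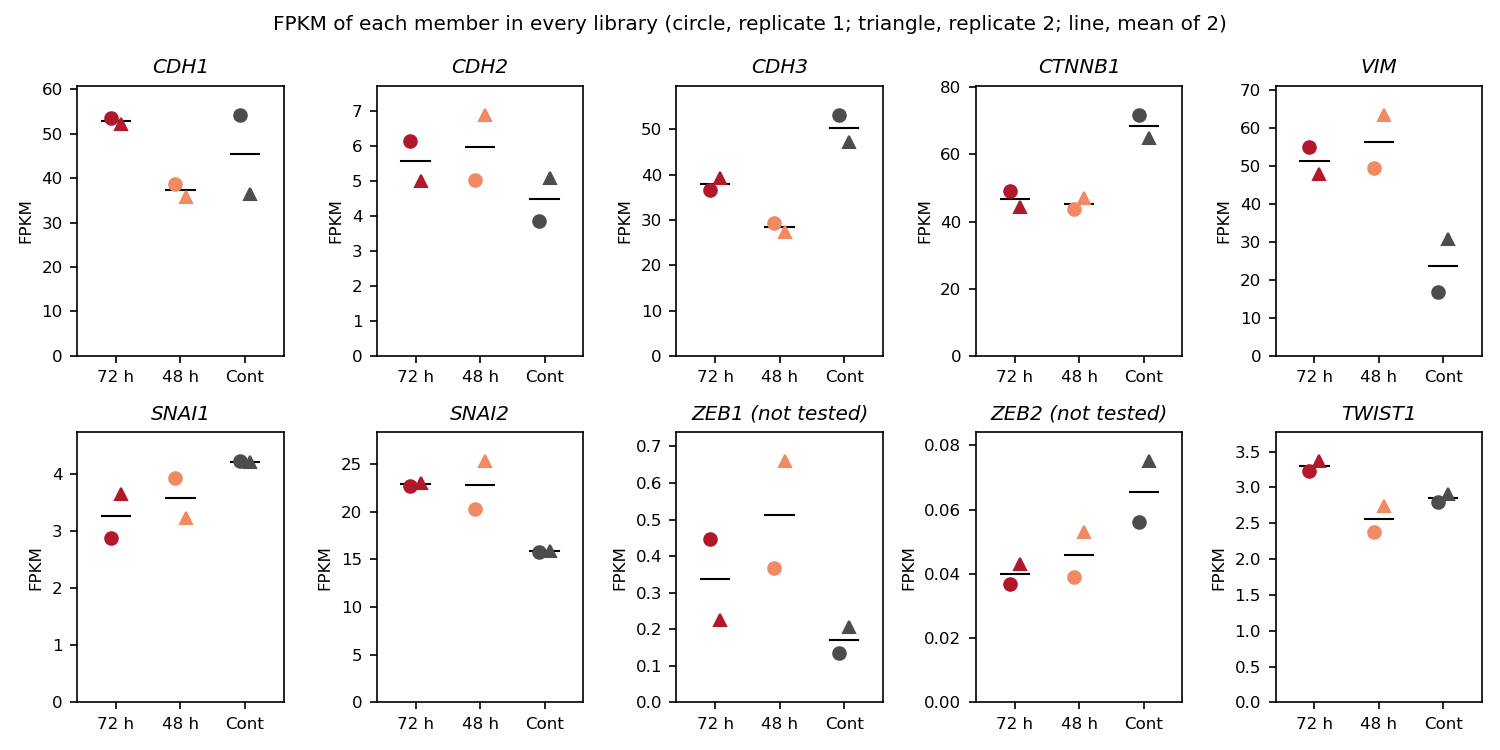
FPKM of the 10 members in each library (vertical axes, each starting at 0) for 72 h, 48 h and Cont, with circles for replicate 1, triangles for replicate 2 and lines at the mean of 2 libraries. VIM and SNAI2 lie higher in all 4 knockdown libraries than in Cont and CDH3 and CTNNB1 lower, while CDH1 and VIM spread widely between the Cont libraries.

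Among the cadherins, CDH3 moved most. CDH3 (ENSG00000062038, GRCh38 chromosome 16 from 68636189 to 68722616, plus strand) encodes P-cadherin, an adhesion molecule of basal squamous epithelium. It was at 36.6 and 39.2 FPKM at 72 h, 29.3 and 27.4 FPKM at 48 h, and 53.2 and 47.2 FPKM in Cont. Every knockdown library lay below both Cont libraries, and the 48 h libraries were the lowest. Its log2 fold change was -0.40 at 72 h (standard error 0.09, adjusted p = 0.0315, limma) and -0.80 at 48 h (standard error 0.09, adjusted p = 0.00264, limma). The means at 72 h and 48 h were 0.755 and 0.565 of the Cont mean. The 72 h libraries lay above the 48 h libraries, with a log2 fold change of 0.40 between the times that missed the threshold (standard error 0.09, adjusted p = 0.0528, limma). At 48 h the fall was called in all 15 alternative analyses. No filter, quantile normalization and a fit of only the compared groups each ended the 72 h call (adjusted p = 0.0980, 0.0503 and 0.0561, limma). At 72 h the call was lost without Cont replicate 1 (adjusted p = 0.119), and leaving out either 72 h library gave an adjusted p of 0.137 (replicate 1) or 0.0862 (replicate 2, limma).

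CDH1 lies next to CDH3 on the same strand of chromosome 16, from 68737292 to 68835541 (ENSG00000039068), and encodes E-cadherin, the main epithelial cadherin. Its level was 53.5 and 52.3 FPKM at 72 h, 38.6 and 35.8 FPKM at 48 h, and 54.2 and 36.5 FPKM in Cont. Cont replicate 1 was at the level of the 72 h libraries and Cont replicate 2 at that of the 48 h libraries, so that the Cont range overlapped with both. The log2 difference between the Cont libraries, 0.557, was larger than that of 97.8% of tested genes. Against Cont the log2 fold change of CDH1 was 0.24 at 72 h (standard error 0.17, adjusted p = 0.384) and -0.25 at 48 h (standard error 0.17, adjusted p = 0.303, limma). Which Cont library entered the fit decided these values. Without Cont replicate 1 they became 0.52 at 72 h (adjusted p = 0.0392, called) and 0.02 at 48 h (adjusted p = 0.873). Without Cont replicate 2 they became -0.04 at 72 h (adjusted p = 0.843) and -0.53 at 48 h (adjusted p = 0.0206, called, limma). The knockdown times alone, which involve no Cont library, were 0.50 apart with the 72 h libraries higher (standard error 0.17, unadjusted p = 0.0219, adjusted p = 0.130, limma).

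CDH2 (ENSG00000170558, chromosome 18 from 27932879 to 28177946, minus strand), the N-cadherin gene, was a minor cadherin in these cells. It was at 6.16 and 5.02 FPKM at 72 h, 5.05 and 6.90 FPKM at 48 h, and 3.87 and 5.09 FPKM in Cont, backed by 661 to 1216 reads a library. The ranges overlapped at both times. Its log2 fold change was 0.27 at 72 h (adjusted p = 0.331) and 0.34 at 48 h (adjusted p = 0.173, limma), with a standard error of 0.17 for each, and CDH2 was not called in any of the 15 alternatives at either time.

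CDH1 made up 55.6% and 54.2% of the summed FPKM of the 3 cadherins at 72 h, 52.9% and 51.0% at 48 h, and 48.7% and 41.1% in Cont. CDH3 made up 38.0% and 40.6% at 72 h, 40.2% and 39.1% at 48 h, and 47.8% and 53.2% in Cont. Thus CDH1 exceeded CDH3 in each knockdown library and in Cont replicate 1, and CDH3 exceeded CDH1 in Cont replicate 2. The share of CDH2 ranged from 5.20% to 9.84% in the knockdown libraries and was 3.48% and 5.73% in Cont. The table gives CDH2 a length 2.00 times that of its longest reference transcript, against 1.26 times for CDH1 and 1.29 times for CDH3, and this choice of length enters any level compared between them.

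**Figure D2:**
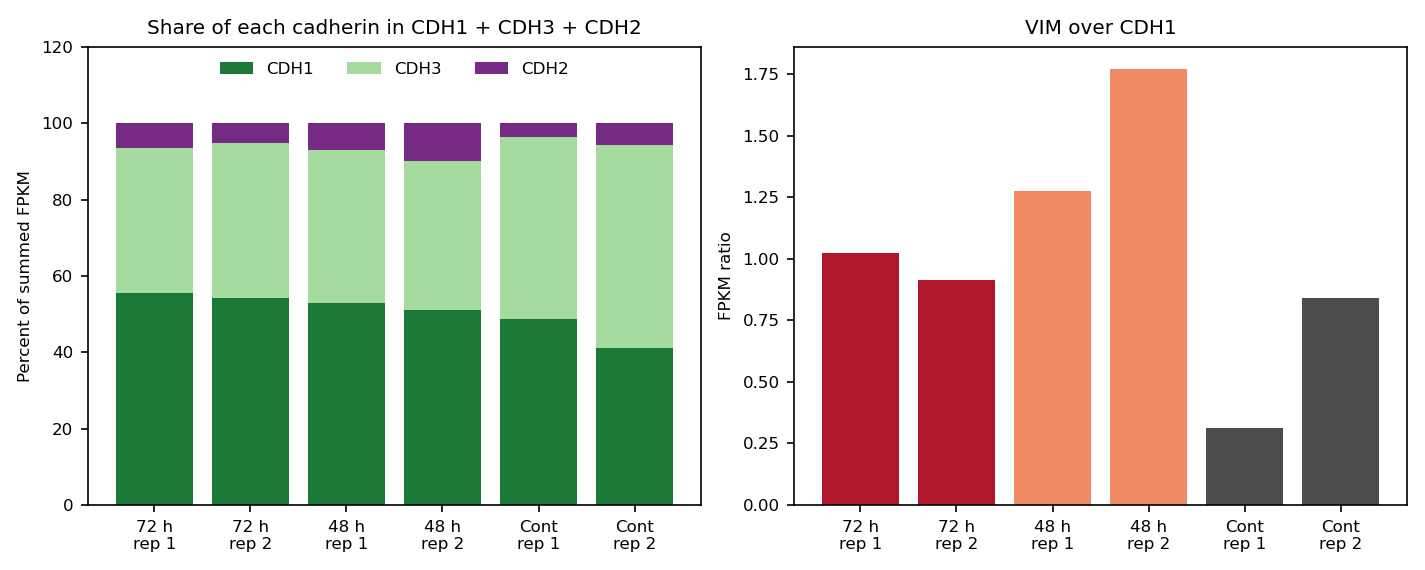
Left, percent of the summed FPKM of CDH1, CDH3 and CDH2 held by each, and right, the ratio of VIM FPKM to CDH1 FPKM, both per library (rep, replicate) with 72 h, 48 h and Cont from left to right. The CDH1 share is above 50% in the 4 knockdown libraries and under it in both Cont libraries, and the VIM to CDH1 ratio is 0.311 and 0.840 in Cont against 0.914 or more after knockdown.

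CTNNB1 (ENSG00000168036, chromosome 3 from 41194741 to 41260096, plus strand), the β-catenin gene, fell by a similar amount at both times. It was at 49.2 and 44.5 FPKM at 72 h, 43.6 and 47.0 FPKM at 48 h, and 71.8 and 65.0 FPKM in Cont. The 4 knockdown libraries all lay below the 2 Cont libraries and overlapped with each other between the times. Its log2 fold change was -0.54 at 72 h (standard error 0.09, adjusted p = 0.0144) and -0.58 at 48 h (standard error 0.09, adjusted p = 0.00642, limma), and the means were 0.685 and 0.663 of that of Cont. The 48 h call held in all 15 alternatives. Without the filter the 72 h call was lost (adjusted p = 0.0657, limma). Leaving out Cont replicate 1 or 72 h replicate 2 ended the 72 h call (adjusted p of 0.0651 and 0.0756, limma).

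VIM (ENSG00000026025, chromosome 10 from 17228241 to 17237593, plus strand) showed the largest change of the tested members. Vimentin was at 54.8 and 47.8 FPKM at 72 h, 49.3 and 63.4 FPKM at 48 h, and 16.8 and 30.7 FPKM in Cont. All 4 knockdown libraries were higher than both Cont libraries, yet the Cont libraries differed 1.82-fold, a log2 gap of 0.829 that exceeded the gap of 99.2% of tested genes. The mean was 2.16 times that of Cont at 72 h and 2.37 times at 48 h. The log2 fold change was 1.13 at 72 h (standard error 0.26, adjusted p = 0.0370) and 1.26 at 48 h (standard error 0.26, adjusted p = 0.0167, limma). At 72 h VIM remained 0.72 higher without Cont replicate 1 (adjusted p = 0.0767) and 1.55 higher without Cont replicate 2, where it was called. The 72 h call also ended when 72 h replicate 1 or 72 h replicate 2 was left out (adjusted p of 0.142 and 0.103, limma), as did the 48 h call without 48 h replicate 2 (log2 fold change 1.08, adjusted p = 0.0961, limma). At 48 h without Cont replicate 1 the rise was 0.84, and it was called. Without the filter neither VIM call held (adjusted p = 0.157 at 72 h and 0.0910 at 48 h, limma). A fit of only the compared groups and a fit with unnamed models included also lost the 72 h call (adjusted p = 0.0582 and 0.0567, limma). The 2 times differed by -0.12 (standard error 0.26), with overlapping ranges.

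The ratio of VIM to CDH1 was 1.03 and 0.914 at 72 h, 1.28 and 1.77 at 48 h, and 0.311 and 0.840 in Cont. The Cont library with more VIM had less CDH1, so the gap between the Cont libraries was wider in the ratio than in either gene.

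VIM-AS1, a transcript of the opposite strand whose model overlaps the start of VIM, was at 1.11 and 0.831 FPKM at 72 h, 0.791 and 1.35 FPKM at 48 h, and 0.252 and 0.714 FPKM in Cont. The order of the libraries was close to that of VIM, and neither change passed the test (adjusted p = 0.210 at 72 h and 0.118 at 48 h, limma). Whether reads were assigned by strand is not stated in the sources used here, so reads of the 2 genes cannot be told apart where they overlap. At 10 to 55 reads a library, VIM-AS1 was far below VIM.

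The 250 bases upstream of the RefSeq start of VIM and CTNNB1 are shown because the EMT factors are known for binding E-boxes in promoters. VIM and CTNNB1 were the 2 members called at both times for which the RefSeq promoter table had a match. Of the 10 members, 5 matched the RefSeq promoter table (CDH2, CTNNB1, VIM, ZEB1 and ZEB2; GRCh38.p14). CDH1, CDH3, SNAI1, SNAI2 and TWIST1 did not match. Capitals mark the GC box GGGCGG on either strand, the only one of 3 motifs searched on both strands that was found in these windows. The VIM window starts 250 bases before the first base of its gene model, and other starts were not searched.
VIM, chr10:17227991-17228240, plus strand: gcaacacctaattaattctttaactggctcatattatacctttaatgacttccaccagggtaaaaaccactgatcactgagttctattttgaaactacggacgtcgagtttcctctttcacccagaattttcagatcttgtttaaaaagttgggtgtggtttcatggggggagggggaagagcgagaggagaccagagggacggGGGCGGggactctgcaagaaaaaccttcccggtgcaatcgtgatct
CTNNB1, chr3:41199255-41199504, plus strand: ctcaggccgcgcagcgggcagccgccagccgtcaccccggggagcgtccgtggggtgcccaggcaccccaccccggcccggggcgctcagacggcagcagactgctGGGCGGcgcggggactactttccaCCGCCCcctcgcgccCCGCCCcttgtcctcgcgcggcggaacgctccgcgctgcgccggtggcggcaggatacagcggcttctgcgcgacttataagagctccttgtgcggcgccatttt
VIM held 1 GC box and CTNNB1 held 3, and 42.6% of the 35116 promoters in the table held 1 or more in the same 250 bases. The E-box CACCTG, bound by Snail, Slug and ZEB factors, was not found in either window and was found in 17.5% of all promoters. The AP-1 site TGANTCA was likewise not found and was found in 6.60%. Among the other members, 2 of 7 ZEB1 windows held an E-box and 1 of 2 CDH2 windows an AP-1 site. None of these matches was tested for binding.

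SNAI2 (ENSG00000019549), which encodes Slug, was the most abundant of the 5 EMT factors. It was at 22.6 and 23.1 FPKM at 72 h, 20.2 and 25.3 FPKM at 48 h, and 15.8 and 15.9 FPKM in Cont. The knockdown libraries all lay above the closely matched Cont libraries. The log2 fold change of SNAI2 was 0.50 at 72 h (standard error 0.10, adjusted p = 0.0282) and 0.49 at 48 h (standard error 0.10, adjusted p = 0.0188, limma), that is, means 1.44 times that of Cont at both times. These calls were close to the threshold, and neither held without the filter (adjusted p = 0.107 at 72 h and 0.0747 at 48 h, limma). At 72 h the call was lost on leaving out any 1 of Cont replicate 1 (adjusted p = 0.105), Cont replicate 2 (adjusted p = 0.0981), 72 h replicate 1 (adjusted p = 0.103) or 72 h replicate 2 (adjusted p = 0.114, limma). At 48 h it was lost without Cont replicate 1 (adjusted p = 0.0733), Cont replicate 2 (adjusted p = 0.0673) or 48 h replicate 2 (adjusted p = 0.0655, limma), while the direction held in each case.

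SNAI1 (ENSG00000124216, chromosome 20 from 49982980 to 49988886, plus strand), which encodes Snail, was at 2.87 and 3.64 FPKM at 72 h, 3.93 and 3.23 FPKM at 48 h, and 4.22 and 4.21 FPKM in Cont. Both Cont libraries were the highest, but the log2 fold change of SNAI1 did not pass the test at either time. It was -0.30 at 72 h (standard error 0.12, unadjusted p = 0.0378, adjusted p = 0.143) and -0.19 at 48 h (standard error 0.12, adjusted p = 0.263, limma). TWIST1 (ENSG00000122691, chromosome 7 from 19020991 to 19117636, minus strand), a basic helix-loop-helix factor, was at 3.23 and 3.36 FPKM at 72 h, 2.38 and 2.74 FPKM at 48 h, and 2.80 and 2.91 FPKM in Cont. The 72 h libraries were above and the 48 h libraries below Cont, by log2 0.16 (adjusted p = 0.267) and -0.12 (adjusted p = 0.334, limma). Between the times TWIST1 was 0.27 higher at 72 h (standard error 0.08, unadjusted p = 0.0143, adjusted p = 0.108, limma). Snail and Slug are closely related zinc finger factors, and the difference between their changes was not tested.

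**Figure D3:**
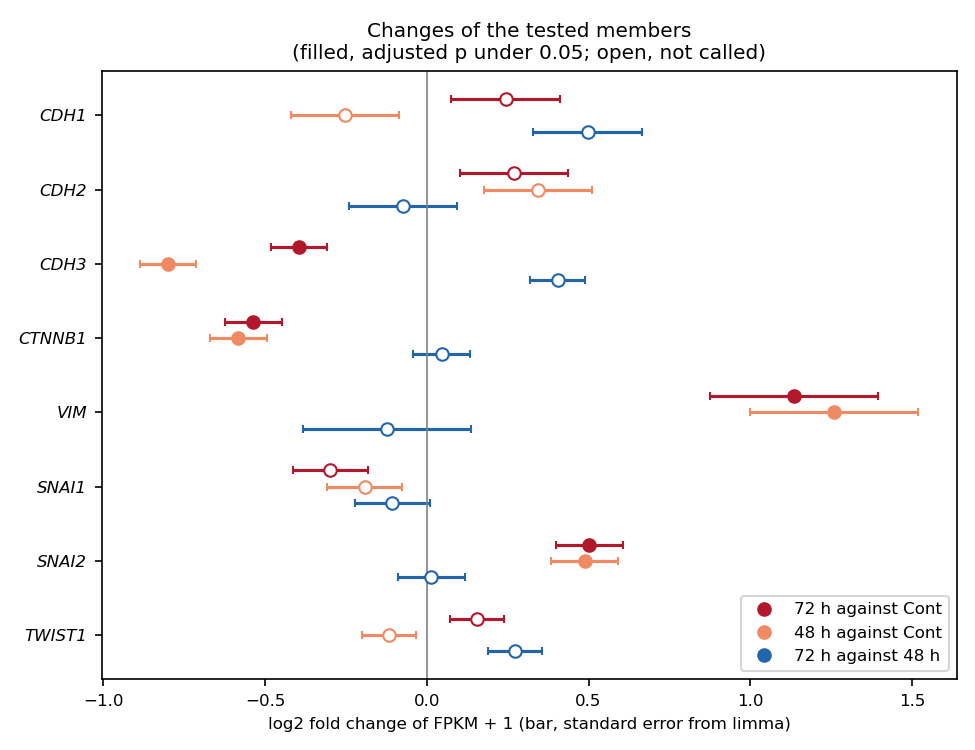
Log2 fold change of FPKM + 1 (horizontal axis) with its standard error for the 8 tested members, for 72 h against Cont, 48 h against Cont and 72 h against 48 h, filled where the adjusted p is under 0.05. VIM and SNAI2 lie to the right and CDH3 and CTNNB1 to the left with filled points at both times, and no point of 72 h against 48 h is filled.

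ZEB1 and ZEB2, zinc finger repressors of CDH1, were close to the limit of detection. ZEB1 (ENSG00000148516) was at 0.448 and 0.225 FPKM at 72 h, 0.367 and 0.659 FPKM at 48 h, and 0.135 and 0.206 FPKM in Cont. These values stand for 80 and 42 reads at 72 h, 56 and 116 at 48 h, and 23 and 31 in Cont, so each knockdown library was above both Cont libraries. In a fit without the filter, the log2 fold change of FPKM + 1 of ZEB1 was 0.19 at 72 h (adjusted p = 0.548) and 0.36 at 48 h (adjusted p = 0.199, limma). A fit on the recovered reads without the filter, added after the data had been seen, gave log2 changes of the reads of 0.93 at 72 h (standard error 0.43, adjusted p = 0.261) and 1.59 at 48 h (standard error 0.41, adjusted p = 0.0248, limma-voom), so the call at 48 h depends on the scale used. The model of ZEB1 also overlaps SPTLC1P1, a pseudogene on the same strand at 7.83 to 11.3 FPKM, whose reads could be assigned to either. ZEB2 (ENSG00000169554) was at 0.037 and 0.043 FPKM at 72 h, 0.039 and 0.053 FPKM at 48 h, and 0.056 and 0.075 FPKM in Cont, from 18 to 34 reads a library, and was not called in either fit.

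The miR-200 family, known for binding ZEB1 and ZEB2 mRNAs and holding them low in epithelial cells, is shown because both of these members hold several matches to its seeds. The mature sequences are from RefSeq, with the seed (bases 2 to 8) in capitals, and fall in 2 seed groups.
hsa-miR-200b-3p: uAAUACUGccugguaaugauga
hsa-miR-200c-3p: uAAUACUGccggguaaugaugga
hsa-miR-429: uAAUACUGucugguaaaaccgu
hsa-miR-141-3p: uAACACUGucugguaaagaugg
hsa-miR-200a-3p: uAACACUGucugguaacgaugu
In the longest annotated 3′ UTR of each gene, the site CAGTATT of the first 3 miRNAs occurred 6 times in ZEB1 (2552 bases) and 5 times in ZEB2 (5373 bases), once in SNAI2 and in none of the other 7 members. The site CAGTGTT of the other 2 miRNAs occurred 3 times in ZEB1, 4 times in ZEB2 and in none of the other 8. Over 18864 genes searched on the transcript strand, 16.3% held CAGTATT and 18.6% CAGTGTT at least once, and longer sequences hold more. The miRNAs themselves were not analysed here, and a match is a description of the sequence alone.

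Transcripts of adherens junction genes and of partners of cadherins or catenins were measured with the members. Of 16 adherens junction partners, 14 were tested. At 72 h, 3 were called lower and 1 was called higher, against 9.51% and 3.56% of all tested genes. At 48 h the calls were 6 lower and 1 higher, against 16.5% and 8.38%. The list had median log2 fold changes of -0.15 and -0.25 against -0.05 and -0.04 over all tested genes. The catenin genes CTNNA1 and CTNND1 were not called at either time. CTNNA1 was at 49.5 to 56.5 FPKM and CTNND1 at 1.23 to 1.93 FPKM, near the filter, where adding 1 draws changes toward 0. Their log2 fold changes were 0.04 and 0.20 at 72 h (adjusted p = 0.761 and 0.239, limma). At 48 h they were 0.17 and -0.12 (adjusted p = 0.111 and 0.387, limma). NECTIN4, a nectin that nucleates junctions, was at 0.848 and 1.17 FPKM at 72 h, 0.521 and 0.549 FPKM at 48 h, and 3.36 and 2.95 FPKM in Cont. It fell by 1.05 at 72 h (adjusted p = 0.00473) and by 1.43 at 48 h on the log2 scale (adjusted p = 0.00124, limma). JUP, which encodes plakoglobin, the closest relative of β-catenin, was at 93.3 and 96.9 FPKM at 72 h, 59.6 and 51.1 FPKM at 48 h, and 124 and 89.4 FPKM in Cont. JUP fell at 48 h by 0.92 (adjusted p = 0.00914, or 0.0605 without 48 h replicate 2, limma) and lay within the Cont range at 72 h (log2 fold change -0.15, adjusted p = 0.579). CTNNBIP1, an inhibitor that keeps β-catenin from TCF factors, was at 5.25 and 5.33 FPKM at 72 h, 4.14 and 3.87 FPKM at 48 h, and 7.30 and 8.82 FPKM in Cont. It fell by 0.52 at 72 h (adjusted p = 0.0193) and by 0.85 at 48 h (adjusted p = 0.00281, limma). The 72 h call was lost without Cont replicate 2, 72 h replicate 1 or 72 h replicate 2 (adjusted p = 0.0664, 0.0904 and 0.0808, limma). Of 20 further cadherin genes, 18 were under 1 FPKM in every library. The 2 tested, CDH4 and CDH13, were not called at either time by limma. At 48 h, 1 of them passed at an unadjusted p under 0.05, as did 4475 of all 11214 tested genes, and limma-voom called 1.

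Genes of the β-catenin pathway were called in both directions. Of 17 genes of the destruction complex and the TCF factors, 13 were tested, with 2 called at 72 h, both lower, and 3 called lower and 2 higher at 48 h. Over all tested genes, 9.51% were called lower and 3.56% higher at 72 h, and 16.5% and 8.38% at 48 h. The list's median log2 fold changes were -0.139 at 72 h and -0.105 at 48 h, against -0.049 and -0.035 over all tested genes. A difference from these shares was not tested. FBXW11, a ubiquitin ligase subunit that recognises phosphorylated β-catenin, was at 8.69 and 10.3 FPKM at 72 h, 7.13 and 6.10 FPKM at 48 h, and 19.3 and 18.3 FPKM in Cont, falls of 0.92 (adjusted p = 0.00527) and 1.38 (adjusted p = 0.000990, limma). TCF7L1, a TCF factor that mostly represses, fell by 0.65 at 48 h (adjusted p = 0.00543) and had a log2 fold change of -0.26 at 72 h (adjusted p = 0.114, limma). Of 18 Wnt target genes, 7 were tested, with 1 called lower and 2 higher at 72 h and 2 called at 48 h, both higher. The classical feedback target AXIN2 was among the 11 that stayed under 1 FPKM. TNFRSF19 was called higher at both times, by 0.69 at 72 h (adjusted p = 0.00684) and 0.48 at 48 h (adjusted p = 0.0106, limma), the 48 h call being lost without Cont replicate 2 (adjusted p = 0.0512) or 48 h replicate 2 (adjusted p = 0.0640). DKK1, a secreted Wnt antagonist and target, was at 113 and 107 FPKM at 72 h, 118 and 104 FPKM at 48 h, and 71.7 and 81.5 FPKM in Cont. It rose by 0.52 at 72 h (adjusted p = 0.0210) and by 0.53 at 48 h (adjusted p = 0.0113, limma). The 72 h call was lost without Cont replicate 1, 72 h replicate 1 or 72 h replicate 2 (adjusted p = 0.0861, 0.101 and 0.0740), and the 48 h call without Cont replicate 1 or 48 h replicate 1 (adjusted p = 0.0513 and 0.0615, limma). The target called lower at 72 h was CCND1, which encodes the G1 cyclin D1, at 140 and 105 FPKM at 72 h, 163 and 199 FPKM at 48 h, and 209 and 198 FPKM in Cont. It fell by 0.74 at 72 h (adjusted p = 0.0282), a call lost without Cont replicate 1, Cont replicate 2 or 72 h replicate 2 (adjusted p = 0.111, 0.0889 and 0.0980), and had a log2 fold change of -0.17 at 48 h (adjusted p = 0.440, limma).

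Mesenchymal genes other than VIM were called in both directions. Of 25 mesenchymal structural genes, 18 were tested, with 5 called lower and 2 called higher at 72 h. At 48 h, 7 were called lower and 1 higher, and their median log2 fold changes were -0.26 and -0.27. Of all tested genes, 9.51% were called lower and 3.56% higher at 72 h, and 16.5% and 8.38% at 48 h. COL5A1, a collagen chain, and LOXL2 were called higher at 72 h, by 0.78 and 0.38 (adjusted p = 0.00444 and 0.0334, limma). ITGA5 was called higher at 48 h, by 0.30 (adjusted p = 0.0216, limma). TNC (tenascin-C, a matrix glycoprotein) was at 0.625 and 0.791 FPKM at 72 h, 0.873 and 0.799 FPKM at 48 h, and 4.12 and 3.74 FPKM in Cont. Its falls were 1.53 at 72 h (adjusted p = 0.00192) and 1.42 at 48 h (adjusted p = 0.000858, limma). THBS1 (thrombospondin-1) was at 162 and 182 FPKM at 72 h, 175 and 155 FPKM at 48 h, and 398 and 382 FPKM in Cont, and was called lower at both times. SPARC, a collagen-binding matricellular protein, fell by 0.80 at 48 h (adjusted p = 0.00584, limma) and was at 190 and 210 FPKM at 72 h, against 214 and 194 FPKM in Cont. Of 9 other type III and IV intermediate filament genes, 7 were under 1 FPKM throughout. NEFL, a neurofilament subunit, was at 8.19 and 4.91 FPKM at 72 h, 3.40 and 3.89 FPKM at 48 h, and 15.5 and 11.9 FPKM in Cont, opposite in direction to VIM. Its log2 fold change was -0.99 at 72 h (adjusted p = 0.0307) and -1.66 at 48 h (adjusted p = 0.00394, limma). The 72 h call of NEFL was lost in 5 of 15 alternatives, among them no filter (adjusted p = 0.138) and the compared groups alone (adjusted p = 0.0571, limma). Fibroblast markers summed to 1.32 and 1.35 FPKM at 72 h, 1.06 and 1.11 FPKM at 48 h, and 2.14 and 2.09 FPKM in Cont, lower in the libraries in which VIM was higher, and their part in the VIM values was not tested.

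Of 14 further transcription factors associated with EMT, 8 were tested, with 2 called lower and 1 higher at both times. Over all tested genes, 9.51% were called lower and 3.56% higher at 72 h, and 16.5% and 8.38% at 48 h. A difference from these shares was not tested. The gene called higher was HMGA2, an architectural chromatin protein, at 56.2 and 41.0 FPKM at 72 h, 83.5 and 93.5 FPKM at 48 h, and 25.9 and 22.5 FPKM in Cont. It rose by 0.96 at 72 h (adjusted p = 0.0130, or 0.0660 without Cont replicate 2) and by 1.83 at 48 h (adjusted p = 0.00142, limma). SOX4 and SOX9, SRY-related factors, were the genes called lower. The SOX9 call ended without Cont replicate 1 at 72 h and at 48 h (adjusted p of 0.0876 and 0.0613), without 72 h replicate 1 or 72 h replicate 2 (0.0920 and 0.0579) and without 48 h replicate 1 (0.0538, limma). SOX4 was at 2.19 and 2.35 FPKM at 72 h, 1.75 and 1.84 FPKM at 48 h, and 3.93 and 4.28 FPKM in Cont. Of the nearest relatives of the members in this list, SNAI3 was under 1 FPKM in every library. TWIST2 was at 5.45 and 5.83 FPKM at 72 h, 6.86 and 7.07 FPKM at 48 h, and 5.34 and 6.08 FPKM in Cont. It was not called at 72 h (log2 fold change -0.01, adjusted p = 0.931) or at 48 h (0.25, adjusted p = 0.0645, limma), although both 48 h values lay above both Cont values.

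Factors that uphold the epithelial state include genes called lower at 48 h and in each direction at 72 h. Of 12 epithelial transcription factors and splicing regulators, 11 were tested, with 1 called lower and 1 higher at 72 h and 6 called at 48 h, all lower, and median log2 fold changes of -0.24 and -0.61. Among all tested genes, 9.51% were called lower and 3.56% higher at 72 h, and 16.5% lower at 48 h. GRHL3, a grainyhead-like factor of epidermal barrier formation, was at 2.21 and 1.09 FPKM at 72 h, 0.455 and 0.406 FPKM at 48 h, and 5.34 and 3.002 FPKM in Cont. It fell by 1.82 at 48 h (adjusted p = 0.00559, limma). EHF, an epithelial ETS factor, was at 10.4 and 12.5 FPKM at 72 h, 8.51 and 5.76 FPKM at 48 h, and 20.5 and 15.8 FPKM in Cont, a fall of 1.25 at 48 h (adjusted p = 0.00638, limma). At 72 h GRHL3 and EHF were not called (adjusted p = 0.0585 and 0.0796, limma). The gene called higher at 72 h was ELF3, another epithelial ETS factor. It was at 5.80 and 10.4 FPKM at 72 h, 5.98 and 3.67 FPKM at 48 h, and 3.12 and 3.30 FPKM in Cont. ELF3 rose by 1.06 at 72 h (adjusted p = 0.0459, limma), or by 0.69 without 72 h replicate 2. The 72 h call of ELF3 was close to the threshold and was lost in 9 of 15 alternatives. Among these were no filter (adjusted p = 0.185), no trend (adjusted p = 0.0524) and a pseudocount of 5 (adjusted p = 0.0545, limma). At 48 h ELF3 was not called (log2 fold change 0.44, adjusted p = 0.264, limma).

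Squamous markers also included genes called lower. Of the 7 tested, 1 was called lower at 72 h and 5 at 48 h, with median log2 fold changes of -0.21 and -1.15. The shares of all tested genes called lower were 9.51% at 72 h and 16.5% at 48 h. KRT5, a keratin of basal cells, was at 257 and 269 FPKM at 72 h, 126 and 117 FPKM at 48 h, and 298 and 247 FPKM in Cont. KRT17 was at 87.8 and 92.0 FPKM at 72 h, 37.1 and 37.7 FPKM at 48 h, and 164 and 135 FPKM in Cont. CDH1 and CDH3 had their lowest knockdown values at 48 h as well, and the part of these markers in those values was not tested.

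Among 17 regulators of Snail and E-cadherin protein, 16 were tested, with 1 called lower and 1 higher at 72 h and 0 called by limma at 48 h. For all tested genes the shares were 9.51% lower and 3.56% higher at 72 h, and 16.5% and 8.38% at 48 h. At an unadjusted p under 0.05, 6 of the 16 passed at 48 h, as did 4475 of all 11214 tested genes (limma). Limma-voom on the recovered reads called 1 of the 16 lower and 1 higher at 48 h, against 3320 called over all tested genes. The gene called higher at 72 h was ADAM10, the sheddase that cleaves the extracellular part of E-cadherin and N-cadherin. It was at 10.1 and 10.3 FPKM at 72 h, 6.37 and 6.73 FPKM at 48 h, and 6.92 and 6.21 FPKM in Cont, a rise of 0.57 at 72 h (adjusted p = 0.00771, limma). EZH2, a Polycomb methyltransferase, was at 7.36 and 6.74 FPKM at 72 h, 7.28 and 8.03 FPKM at 48 h, and 8.88 and 9.09 FPKM in Cont. Its call at 72 h (adjusted p = 0.0458) was lost without any 1 of Cont replicate 1, Cont replicate 2, 72 h replicate 1 and 72 h replicate 2 (adjusted p = 0.131, 0.150, 0.101 and 0.196, limma).

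**Figure D4:**
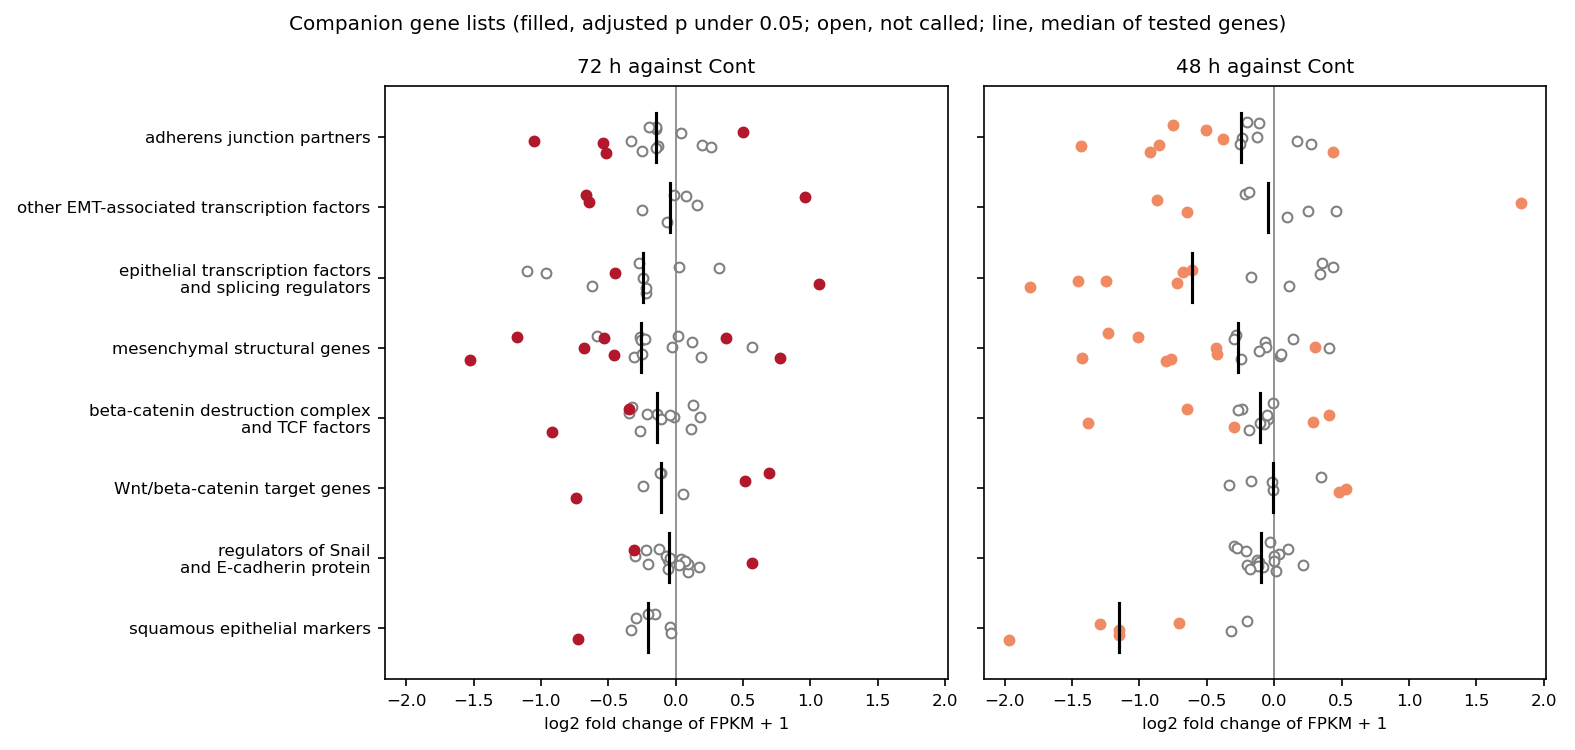
Log2 fold change of FPKM + 1 (horizontal axis) of every tested gene of 8 companion lists, at 72 h against Cont on the left and 48 h against Cont on the right, filled where the adjusted p is under 0.05, with a line at the list's median. The squamous and epithelial factor lists have their lowest medians at 48 h, -1.15 and -0.61, while the other lists hold filled points on one or both sides of 0.

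Among the tested genes whose values ran most like those of CDH1 over the 6 libraries were UBOX5, RIPOR1, UPF2 and TANC1, with Pearson correlations of log2(FPKM + 1) of 0.992, 0.982, 0.980 and 0.975. Those most like VIM were AURKAIP1, PSMC3, CWF19L1, GCSHP5 and MPI, with 0.997, 0.992, 0.992, 0.987 and 0.986. They were picked as the nearest of 11214 genes over 6 points that share 3 groups, and the values are a description. None of these 4 genes near CDH1 was called at 72 h or at 48 h, as for CDH1 itself. Near VIM, PSMC3 and GCSHP5 were called higher at both times and AURKAIP1 at 48 h.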

How the data were processed

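RNA was column-purified, sequenced on a DNBSEQ instrument and aligned with Hisat2 2.0.1 by the authors. The submitters' processing notes also name HTSeq 0.6.1, DESeq2 and GRCh38 but not what each was used for. Strand handling and the annotation used are not given in the sources used here. The deposited values are the authors' FPKM of 66351 gene models. Each low value equalled a whole number of reads (tolerance 0.1 read), which gave reads per gene and 17430737 to 21579559 assigned reads a library.

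The 6831 models without a name were left out, and the 11214 named genes at 1 FPKM or more in at least 2 of 6 libraries were tested. Log2(FPKM + 1) was fitted over all 6 libraries by limma 3.58.1 (R 4.3.3), with a mean for each group and a variance trend. P values were adjusted by Benjamini-Hochberg over all tested genes, and an adjusted p under 0.05 was called. The fit was tested on simulated data. Tables were made with Python 3.11.15 and pandas 2.3.3.

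Members and companion lists were chosen with earlier results of these data known. Genes named are members, IGFBP3 and part of up to 4 called genes of largest change per list, with the 5 genes nearest to CDH1 and to VIM, of which 1 is not reported here. CDH4, CDH13, AXIN2, SNAI3, TWIST2, KLF4, COL5A1, VIM-AS1, SPTLC1P1 and the markers TP63, EPCAM and SFN lie outside that rule. CTNNA1, CTNND1, LOXL2, ITGA5 and the marker KRT16 also lie outside it. Alternatives were pseudocounts of 0.1 and 5, no filter, FPKM of at least 5, TPM, quantile normalization, no trend, the replicate number as a block, fits of only the groups compared, limma-voom on recovered reads, unnamed models included and each library left out. A lone remaining library was assumed to vary like those of the other groups. Promoters, miRNAs (RefSeq) and 3′ UTRs (GENCODE v29, GRCh38) served for sequence searches.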

Additional observations from a re-analysis of the deposited data

Results flagged for a closer look

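No member differed between 72 h and 48 h past the threshold, but 9 companion genes and IGFBP3 did (limma, 72 h against 48 h). KLF4, a Krüppel-like factor, differed by -0.80 (adjusted p = 0.0264) and COL5A1, a collagen chain, by 0.74 (adjusted p = 0.0152). These 2 lie outside the rule for named genes and were not refitted with a library left out. For the other genes, the difference was 0.77 for JUP, 0.78 for SPARC and 0.57 for ADAM10, all higher at 72 h, and -0.87 for HMGA2. The squamous keratins KRT17, KRT14 and KRT5 were higher at 72 h by 1.24, 1.00 and 1.11. IGFBP3 was 1.38 higher at 72 h, with 1.52 and 3.25 FPKM at 72 h against 0.261 and 0.258 FPKM at 48 h. Apart from KLF4 and COL5A1, each of these calls was lost in at least 1 fit that left out a library, and the highest adjusted p of these limma fits was 0.203 for JUP, 0.152 for SPARC, 0.131 for ADAM10 and 0.0825 for KRT5, each without 72 h replicate 2, 0.104 for KRT14 and 0.0691 for KRT17 without 48 h replicate 1, and 0.159 for HMGA2 and 0.133 for IGFBP3 without 48 h replicate 2.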

How the results depend on the processing

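Over the 8 tested members and 3 comparisons, 354 alternative values were computed for 24 results. Of these, 313 kept direction and side of the threshold, 26 lost the call, 5 gained one and 10 turned in direction. CDH3 and CTNNB1 at 48 h kept the call in every alternative run. Without the filter the genes called numbered 371 at 72 h, 1432 at 48 h and 18 between the times, against 1465, 2785 and 455, and the members called were 0, 2 and 0, against 4, 4 and 0. With a minimum of 5 FPKM, 965 genes were called at 72 h, and 1 member was called between the times. With the compared groups alone 2 members were called at 72 h, and 250 genes and 1 member between the times. Limma-voom called 1163 genes and 1 member between the times, and 98 genes were called there with unnamed models included. Leaving out 1 library gave 388 to 536 genes at 72 h, 1026 to 1486 at 48 h and 0 to 156 between the times, and 0 to 3 members at 72 h and 2 to 4 at 48 h. No member was called between the times without any 1 library. Quantile normalization moved the share of calls that were higher to 45.0% at 72 h and 49.2% at 48 h, against 27.2% and 33.8%.

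Same-numbered libraries did not deviate together (correlations 0.159 for Cont and 72 h, -0.003 for Cont and 48 h, -0.123 for 48 h and 72 h), so the replicate numbers were not taken as pairs. With the number as a replicate block, 1163, 2517 and 177 genes were called at 72 h, at 48 h and between the times, and the 4 members kept their calls at both times.

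Directions turned for results that were not called in the fit of all 6 libraries. Among these, CDH1 (0.24 at 72 h and -0.25 at 48 h) and KRT6A (-0.21 at 72 h) were not close to 0. Quantile normalization gave 0.0082 for SPARC at 72 h and 0.059 for ADAM10 at 48 h. Leaving out 1 library moved the log2 fold change at 72 h between -0.035 and 0.52 for CDH1, -0.38 and 0.087 for JUP, -0.098 and 0.045 for SPARC, -0.57 and 0.16 for KRT6A, -0.30 and 0.0041 for KRT14 and -0.18 and 0.093 for KRT5. At 48 h it moved between -0.53 and 0.025 for CDH1 and -0.070 and 0.065 for ADAM10. Between the times it ran from -0.27 to 0.12 for CDH2, -0.025 to 0.12 for CTNNB1, -0.30 to 0.054 for VIM, -0.24 to 0.025 for SNAI1 and -0.14 to 0.17 for SNAI2. The cause was not tested. The 2 Cont libraries differed by 0.56 for CDH1 and 0.83 for VIM on the log2 scale, and few reads limit ZEB1 and ZEB2.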
